A study of Mus musculus with 4 samples.

Results

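The transcripts of p53, of 6 of its target genes and of the 3 Gadd45 genes were followed in mouse embryonic stem cells with and without genes of mitochondrial fission. The 10 genes were taken from the deposited expression table by their symbols, summed over their 14 transcripts, and are 10 of 20619 protein-coding genes there. The control was the parental line e14tg2a, a line of strain 129/Ola that lacks a functional Hprt gene, a deletion its derivatives carry too. The other lines were Dnm1l-/-, without the GTPase Drp1 that constricts mitochondria, and Fis1-/- and Mff-/-, without an outer membrane protein that acts in fission. All were grown at passages 30 to 35 in medium with serum and leukemia inhibitory factor on mouse embryonic fibroblast feeders, and each was sequenced as 1 library of RNA. The labels do not say how the knockouts were made or whether a line is 1 clone. The series title asks what fission genes do for mitochondrial shape and energy metabolism.

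Values are FPKM, fragments scaled by transcript length and by library depth, and differences are each knockout minus control on the log2(FPKM + 1) scale, where 1 or -1 marks 2-fold. Each line has 1 library, so there is no replicate error, no test was made, and every statement is about these libraries. An estimated 35400000 to 37800000 fragments stood behind each library, and intervals given with values are 95% counting intervals from that estimate, which cover counting error only. Each targeted gene was lowest in its own knockout (Dnm1l at 22.9 FPKM against 35.0 in control, Fis1 at 56.2 against 103, Mff at 11.8 against 28.9). The 10 stem cell markers examined, Pou5f1, Nanog and Sox2 among them, were at 34.9 FPKM or more in every library. In bulk RNA, fewer cells of a type and less RNA per cell cannot be told apart.

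p53, encoded by Trp53, is a transcription factor that DNA damage and other stresses stabilise. It binds as a tetramer to a pair of adjoining decamers in DNA and turns on genes of cell cycle arrest, apoptosis, repair and metabolism, among them Mdm2, whose product in turn marks p53 for degradation. Because p53 is controlled mainly as a protein, the level of its RNA says little about its activity, and its targets are the usual readout. The Gadd45 proteins are small acidic stress proteins that bind the kinase MAP3K4, the clamp PCNA and the cyclin B1-CDK1 complex and take part in DNA repair and demethylation. Gadd45a is a p53 target, while Gadd45b and Gadd45g are better known as genes induced by cytokines.

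Trp53 itself hardly varied among the lines, and its 6 targets were all within 2-fold of control in each knockout. The cyclin gene Ccng1 and the p53 cofactor gene Trp53inp1 were highest in Dnm1l-/- and Fis1-/- and lowest in Mff-/-. Gadd45a, Gadd45b, Gadd45g and the Akt inhibitor gene Phlda3 were highest in Mff-/-, and Gadd45g, close to absent elsewhere, reached 14.5 FPKM there. None of p53, its targets or the Gadd45 genes was 2-fold away from control in Dnm1l-/- (0 above and 0 below), where 2.51% and 2.09% of the 10688 genes compared were. Counts were also 0 and 0 in Fis1-/-, against 1.80% and 1.89% of all genes. In Mff-/- 1 gene was at least 2-fold higher, Gadd45g, and 0 were lower, against 2.61% and 2.89% of all genes. The median difference of the 10 genes was 0.00, 0.07 and 0.05 in Dnm1l-/-, Fis1-/- and Mff-/-, beside 0.01, 0.01 and -0.07 over all genes compared. Over the 4 libraries, the highest value was at least 2-fold above the lowest in 4 of the 10, Ccng1, Trp53inp1, Gadd45a and Gadd45g, as in 18.0% of all genes compared. Without the Mff-/- library this count was 0, and 5.46% over all genes.

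**Figure D1:**
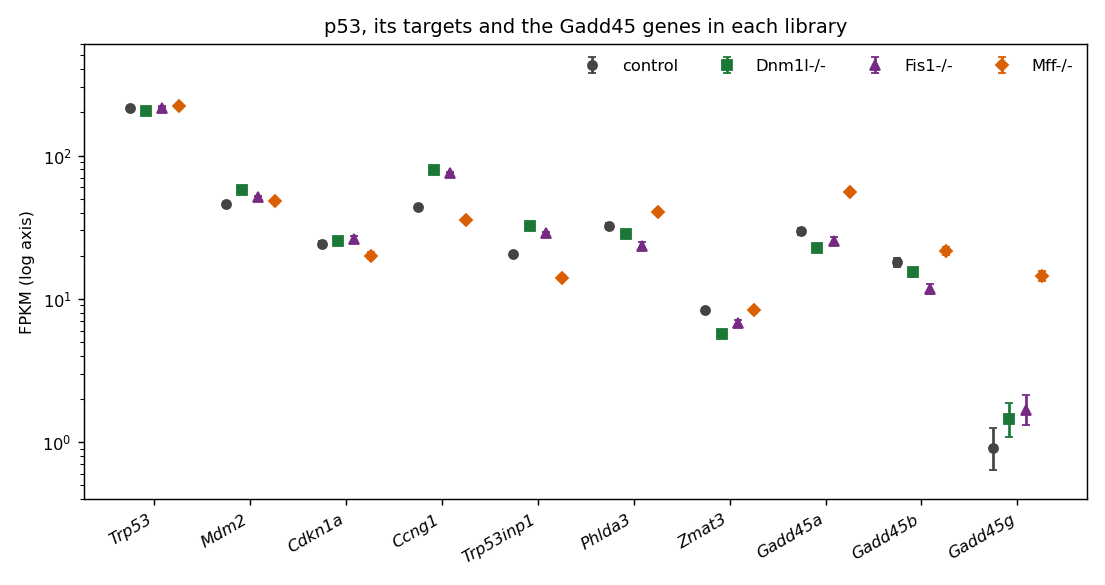
FPKM of the 10 genes (log axis) in each of the 4 libraries, 1 point per library, with 95% counting intervals as bars. Trp53 lies near 214 FPKM in every library, Ccng1 and Trp53inp1 peak in Dnm1l-/- and Fis1-/-, and Gadd45g stands at 14.5 FPKM in Mff-/- against 0.907 to 1.69 elsewhere.

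Trp53 was the most abundant of the 10 genes, at 214 FPKM in control cells, 204 without Dnm1l, 216 without Fis1 and 220 without Mff. The highest library was 1.08 times the lowest, and only 1.67% of the genes compared had a range as small or smaller. Its intervals in control and Fis1-/- overlapped, at 211 to 218 and 213 to 220 FPKM, while Dnm1l-/- lay below both at 200 to 207. The sum hides a difference between its 2 transcripts, which share both ends on chromosome 11, 69580359 to 69591873 (mm10). NM_011640 was at 192, 177, 186 and 182 FPKM in control, Dnm1l-/-, Fis1-/- and Mff-/-. NM_001127233 was at 22.1, 27.0, 30.0 and 38.2 FPKM in the same order. The latter is 96 bases longer, and in the annotation its last exon begins at 69591254 in place of 69591350, which gives the alternatively spliced form with another C terminus known from the mouse. Its share of Trp53 was 10.3% in control cells, 13.2% without Dnm1l, 13.9% without Fis1 and 17.3% without Mff, lowest in control and highest in Mff-/-. The division of fragments between overlapping transcripts is an estimate of the quantifier, and the shares have no replicate check.

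Mdm2, the ubiquitin ligase that removes p53, was at 46.0 FPKM in control cells, 57.9 without Dnm1l, 51.2 without Fis1 and 48.0 without Mff. Dnm1l-/- was highest, 1.26 times control (interval 1.21 to 1.31), and the intervals of control and Mff-/- overlapped, at 44.8 to 47.3 and 46.7 to 49.3 FPKM. Mdm2 lies on the reverse strand of chromosome 10, 117688875 to 117710758, with 2 deposited transcripts that share both ends. NM_010786 was at 19.5, 31.0, 26.0 and 12.8 FPKM in control, Dnm1l-/-, Fis1-/- and Mff-/-. NM_001288586, which is 85 bases shorter, the length of exon 3 of the annotated gene, was at 26.6, 26.9, 25.2 and 35.3 in the same order. The longer form thus made up 42.3% of Mdm2 in control cells, 53.5% without Dnm1l, 50.8% without Fis1 and 26.6% without Mff. Its ratio to control was 1.59, 1.33 and 0.655 in the 3 knockouts, where the sum of both forms was 1.26, 1.11 and 1.04 times control.

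**Figure D2:**
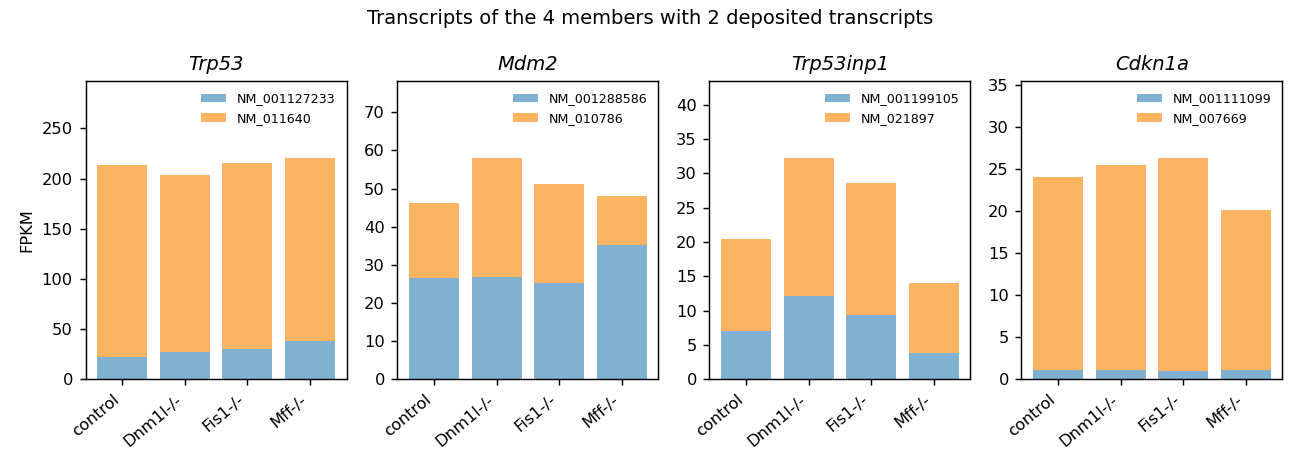
Stacked FPKM of the 2 deposited transcripts of Trp53, Mdm2, Trp53inp1 and Cdkn1a in each library (1 library per bar, vertical axes from 0). NM_010786 of Mdm2 is at 19.5 FPKM in control and 12.8 in Mff-/- while NM_001288586 is at 26.6 and 35.3, and NM_001111099 of Cdkn1a is near 1 FPKM in each library.

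Cdkn1a encodes p21, the inhibitor of cyclin-dependent kinases through which p53 halts the cell cycle. It was at 24.1 FPKM in control cells, 25.5 without Dnm1l, 26.3 without Fis1 and 20.0 without Mff. Mff-/- was the lowest, 0.830 times control (interval 0.773 to 0.892), and Dnm1l-/- and control overlapped in their intervals. Cdkn1a has 2 deposited transcripts on chromosome 17 that end at 29100722 and start 2786 bases apart. NM_007669, from the start at 29093772, held 94.2% to 96.0% of the gene in each library. The other, NM_001111099, which starts at 29090986, was at 1.09 FPKM in control cells, 1.09 without Dnm1l, 1.06 without Fis1 and 1.17 without Mff. Letters that match a p53 element lie just before the upstream start, which RefSeq places at 29090979. Of the 250 bases before that position, bases -51 to -32 hold 2 adjoining p53 decamers with at most 1 mismatch in 20 bases, searched in 32851 RefSeq windows of the same length (GRCm38.p6) and found in 0.0761% of them. Among the 8 of the 10 genes with a window, Cdkn1a and Ccng1 had such a pair, and their windows are shown with the paired decamers in capitals.
Cdkn1a, upstream start, chr17:29090729-29090978, forward strand: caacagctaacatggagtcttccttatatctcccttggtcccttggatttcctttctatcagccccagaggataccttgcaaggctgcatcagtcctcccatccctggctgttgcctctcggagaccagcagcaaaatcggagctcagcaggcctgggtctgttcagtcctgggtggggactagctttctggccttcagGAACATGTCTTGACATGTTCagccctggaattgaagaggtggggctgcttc
Ccng1, chr11:40755287-40755536, reverse strand: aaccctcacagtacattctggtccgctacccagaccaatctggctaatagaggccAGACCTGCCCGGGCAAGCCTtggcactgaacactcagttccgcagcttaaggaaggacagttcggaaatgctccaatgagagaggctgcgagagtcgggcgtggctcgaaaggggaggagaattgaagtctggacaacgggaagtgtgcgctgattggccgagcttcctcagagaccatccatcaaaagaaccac

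A single p53 decamer without mismatch, present in 7.13% of all windows, was found in the windows of 5 of these 8 genes, Trp53, Mdm2, Cdkn1a, Ccng1 and Gadd45a, and not in those of Phlda3, Gadd45b and Gadd45g. The search read both strands, since the decamer is its own reverse complement. A match describes letters and not binding, and known p53 elements of other targets lie outside these windows.

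Ccng1, cyclin G1, is an early p53 target whose protein joins protein phosphatase 2A and acts back on the Mdm2-p53 circuit. It was at 44.0 FPKM in control (interval 42.9 to 45.2), 78.7 in Dnm1l-/- (77.1 to 80.2), 75.3 in Fis1-/- (73.8 to 76.8) and 35.5 in Mff-/- (34.5 to 36.6). The 4 intervals did not overlap, with Dnm1l-/- highest and Mff-/- lowest. Its differences were 0.82 in Dnm1l-/-, 0.76 in Fis1-/- and -0.30 in Mff-/-, which stood at or above 96.4%, 96.7% and 31.0% of the genes compared. Ccng1 lies on the reverse strand of chromosome 11, 40748552 to 40755286. Trp53inp1 (chromosome 4, 11156441 to 11174377), a p53-induced protein that promotes p53 phosphorylation and autophagy, was at 20.5 FPKM in control cells, 32.2 without Dnm1l, 28.6 without Fis1 and 14 without Mff. The order of the lines was the one seen for Ccng1, with differences of 0.63, 0.46 and -0.52. Each of its 2 transcripts had that order too, and the longer one, NM_001199105, held 34.3%, 37.9%, 32.8% and 27.3% of the gene in control, Dnm1l-/-, Fis1-/- and Mff-/-.

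Ccng1 and Trp53inp1 have the most AT-rich transcripts of the 10 genes, with 40.8% and 38.8% GC, and both fall in the lowest decile of all genes compared. The median difference of that decile was 0.15 in Dnm1l-/-, 0.21 in Fis1-/- and -0.19 in Mff-/-, and that of the highest decile -0.22, -0.23 and 0.08. Less the median of their decile of GC content, the differences of Ccng1 were 0.67, 0.55 and -0.11, and those of Trp53inp1 0.48, 0.25 and -0.33. After this centring, chosen after seeing the data, their ranges over the 4 libraries were under 2-fold, as they were after centring on deciles of transcript length. The part of base composition in these differences was not tested.

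**Figure D3:**
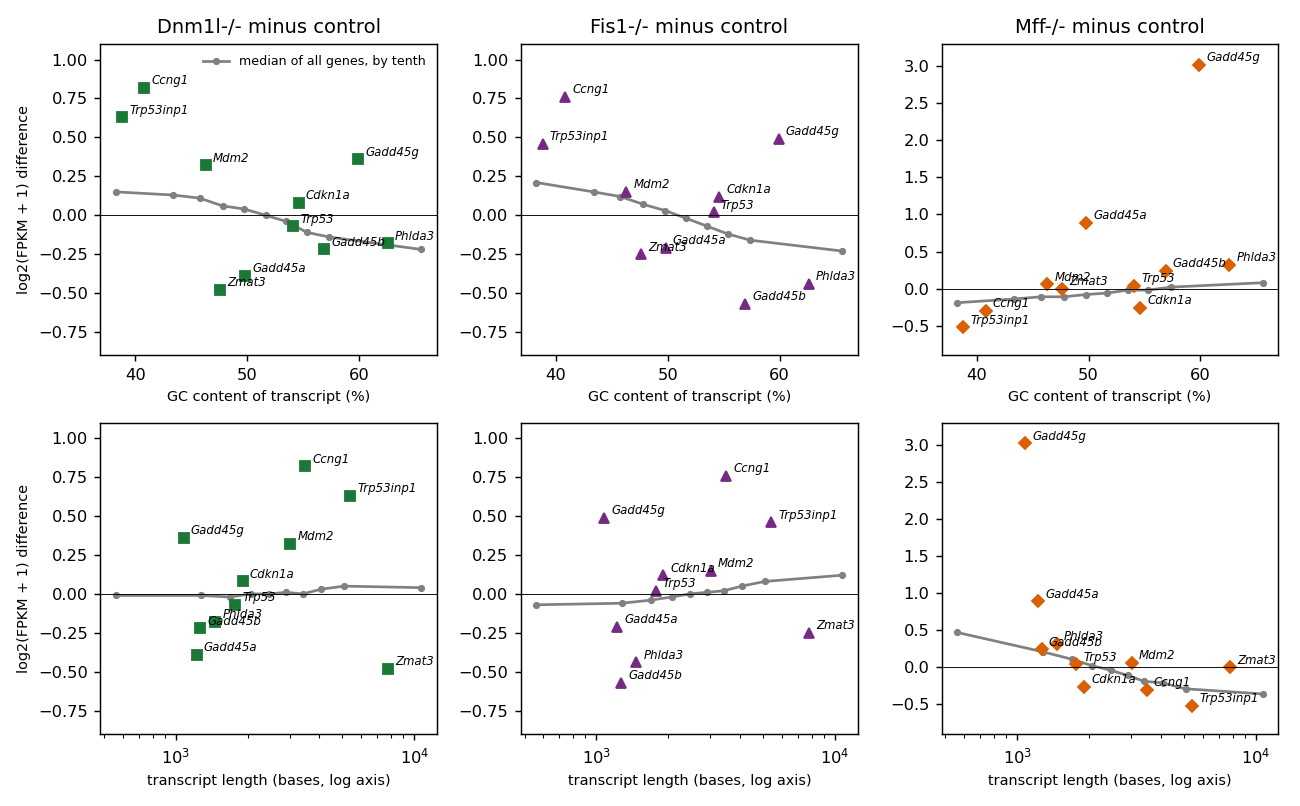
Differences of the 10 genes (coloured points, log2(FPKM + 1), knockout minus control) against GC content and length of their most abundant transcript, with the median of all genes compared in each decile in grey. The grey line falls from 0.15 to -0.22 with GC content in Dnm1l-/- and from 0.47 to -0.36 with length in Mff-/-, and Gadd45g in Mff-/- lies far above it at 3.02.

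Phlda3 (chromosome 1, 135766085 to 135769134), whose protein blocks Akt at the membrane, was at 32.2 FPKM in control cells, 28.3 without Dnm1l, 23.5 without Fis1 and 40.5 without Mff. Fis1-/- was lowest and Mff-/- highest, and the intervals of the 4 libraries did not overlap. Its differences were -0.18, -0.44 and 0.32, and that of Dnm1l-/- was 0.04 after centring on deciles of GC content, in which Phlda3 is in the highest decile at 62.6%. Zmat3 (chromosome 3, 32334794 to 32365665), a zinc finger protein that binds RNA and acts in p53-dependent splicing, was at 8.34 FPKM in control cells, 5.68 without Dnm1l, 6.84 without Fis1 and 8.31 without Mff. It was lowest in Dnm1l-/-, 0.682 times control (interval 0.639 to 0.727), and control and Mff-/- did not differ beyond counting error.

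Gadd45g, on chromosome 13 from 51846675 to 51848474, gave the largest difference of the 10 genes. It was at 0.907 FPKM in control cells, 1.45 without Dnm1l, 1.69 without Fis1 and 14.5 without Mff, from an estimated 37, 55, 66 and 559 fragments. Mff-/- was highest, at 15.9 times control (interval 11.4 to 22.9), and Dnm1l-/- and Fis1-/- were at 1.60 (1.03 to 2.49) and 1.86 times control (1.22 to 2.86). The level intervals were 0.638 to 1.25 FPKM for control, 1.08 to 1.87 for Dnm1l-/- and 1.31 to 2.15 for Fis1-/-, so that Dnm1l-/- overlapped both of the others and control and Fis1-/- did not overlap. The difference of 3.02 was the second largest among all genes compared in Mff-/-. Gadd45g was under 1 FPKM in control alone, and most of its mean of 4.62 FPKM over the 4 libraries came from Mff-/-. The other 9 genes were above 1 FPKM in every library.

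Gadd45a (chromosome 6, 67035096 to 67037407) was at 29.7 FPKM in control cells, 22.5 without Dnm1l, 25.5 without Fis1 and 55.6 without Mff. It too was highest in Mff-/-, 1.88 times control (interval 1.75 to 2.01), a difference of 0.89 that fell short of 2-fold. In Dnm1l-/- and Fis1-/- it was 0.757 and 0.861 times control. Gadd45b (chromosome 10, 80930091 to 80932204) was at 18.0 FPKM in control cells, 15.3 without Dnm1l, 11.8 without Fis1 and 21.5 without Mff, the lowest in Fis1-/- at 0.654 times control (interval 0.586 to 0.729). Together the 3 Gadd45 genes summed to 48.6 FPKM in control cells, 39.2 without Dnm1l, 39.0 without Fis1 and 91.6 without Mff. Gadd45g made up 1.87% of this sum in control and 15.8% in Mff-/-, and Gadd45a 61.1% and 60.7%. An antisense noncoding gene, E230016M11Rik, shares 337 exonic bases with Gadd45a and was at 1.86 to 2.70 FPKM. The series text names a stranded library kit and the sample labels a kit that does not mark strand, so whether reads of the pair were separated where they overlap is uncertain. Another annotated antisense RNA shares 273 exonic bases with Cdkn1a.

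The promoters of Gadd45a and Gadd45g, the Gadd45 genes farthest above control in Mff-/-, are shown because both hold the octamer ATGCAAAT, a site bound by Oct4 and other POU factors, found on either strand in 1.60% of all windows. Gadd45a has it 2 times, at bases -97 to -90 and -70 to -63, and Gadd45g at -103 to -96, overlapping by 6 bases the letters TGATGCAA on the reverse strand (0.791% of windows), those of a C/EBP-ATF element. Gadd45b has neither. Both motifs were picked after reading these sequences, and the capitals mark them.
Gadd45a, chr6:67037408-67037657, reverse strand: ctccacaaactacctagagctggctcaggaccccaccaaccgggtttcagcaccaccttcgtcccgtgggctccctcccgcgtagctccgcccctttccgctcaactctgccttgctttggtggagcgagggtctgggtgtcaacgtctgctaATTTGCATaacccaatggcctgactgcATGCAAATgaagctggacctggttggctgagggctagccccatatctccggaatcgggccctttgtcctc
Gadd45g, chr13:51846425-51846674, forward strand: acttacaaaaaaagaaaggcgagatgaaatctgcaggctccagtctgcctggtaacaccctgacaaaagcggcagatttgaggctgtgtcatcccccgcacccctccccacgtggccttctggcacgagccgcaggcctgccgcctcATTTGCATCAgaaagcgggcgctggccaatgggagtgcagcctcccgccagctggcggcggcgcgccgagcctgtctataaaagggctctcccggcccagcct

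The 3 Gadd45 transcripts are short, 1080 to 1266 bases, and Phlda3 has 1467. Among all genes compared in Mff-/-, the median difference was 0.47 in the decile with the shortest transcripts, 0.21 in the next, which holds all 4 of these genes, and -0.36 in the decile with the longest. Less the median of that decile, the Mff-/- differences were 2.80 for Gadd45g, 0.67 for Gadd45a, 0.03 for Gadd45b and 0.11 for Phlda3. The Mff-/- library also had the largest FPKM total, 707746 against 597921 to 623303 in the others, and rescaling to equal totals moved the small Mff-/- differences of Trp53 and Mdm2 below 0. It shifted the median of all genes there from -0.07 to -0.22, and the shares past 2-fold to 1.43% higher and 4.86% lower. The sum of fibroblast markers was likewise higher there, mostly through Thy1 and Acta2. Of these markers, Fbn1 was below control there, and Col5a1, Dcn, Lum and Loxl1 were highest in another library. The 13 examined summed to 13.4 FPKM in control cells, 13.3 without Dnm1l, 14.2 without Fis1 and 30.8 without Mff, 5, 4, 6 and 6 of them at 1 FPKM or more and 0 listed at 0. Of the 5 compared, 2 were at least 2-fold higher in Mff-/- without rescaling, against 2.61% of all genes. They were Thy1 (4.10 FPKM in control and 11.9) and Acta2 (1.71 and 5.21), and Lum was under 0.1 FPKM in every library. The part of feeder cells, transcript length and scaling in the Gadd45 values was not tested.

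**Figure D4:**
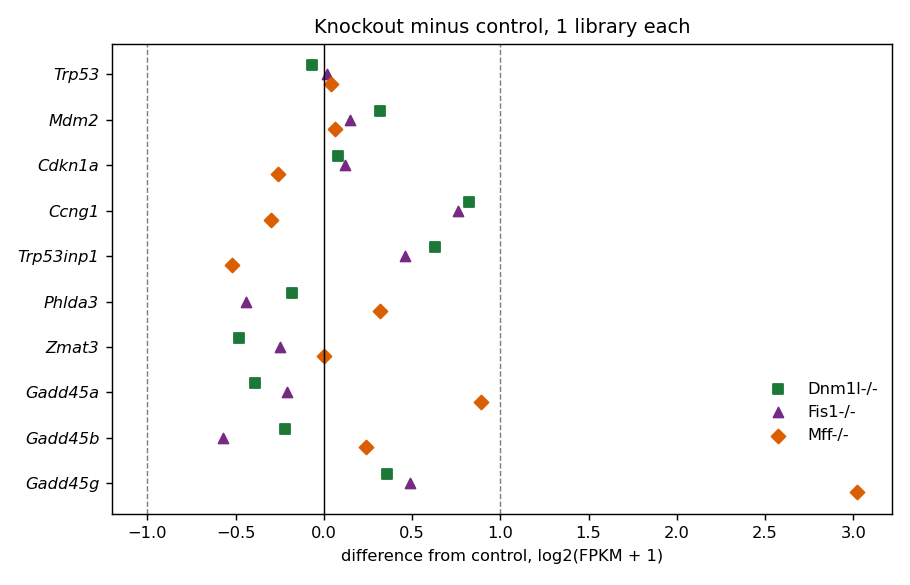
Difference of each of the 10 genes from control on the log2(FPKM + 1) scale in the 3 knockouts, 1 library each, with dashed lines at 2-fold. Gadd45g in Mff-/- at 3.02 is the only point past a dashed line, with Gadd45a in Mff-/- (0.89) and Ccng1 in Dnm1l-/- (0.82) nearest to it.

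Other p53 targets were examined as a list of 45 genes, of which 44 were in the table and 41 were compared. In Dnm1l-/- 0 were at least 2-fold higher and 3 lower (2.51% and 2.09% of all genes), with 17 above control and 24 below and a median of -0.12 beside 0.01 over all genes. Fis1-/- also had 0 higher and 3 lower (1.80% and 1.89% of all genes), with 10 above and 31 below and a median of -0.28 beside 0.01. In Mff-/- 1 was higher and 3 lower (2.61% and 2.89% of all genes), with 20 above and 21 below and a median of -0.03 beside -0.07. From the lowest to the highest decile of GC content, the median of all genes fell from 0.15 to -0.22 in Dnm1l-/-. In Fis1-/- it fell from 0.21 to -0.23. The part of base composition in the medians of the list was not tested. The lower genes were Ddit4, Sesn2 and Gdf15 in Dnm1l-/-, and Ddit4, Sesn2 and Gdf15 in Fis1-/-, 2 comparisons that share their control library. They are known as targets of the stress factor ATF4 as well as of p53.

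Ddit4, an inhibitor of the growth kinase complex mTORC1, was at 44.8 FPKM in control cells, 15.4 without Dnm1l, 15.2 without Fis1 and 62.1 without Mff. Sesn2, which holds mTORC1 in check when leucine is short, was at 65.7, 31.3, 28.6 and 31.7 FPKM in the same order, below control in each knockout. Each of these comparisons used the same single control library. Gdf15, a secreted stress cytokine, was at 6.38, 2.50, 1.27 and 8.63. Ddit4 and Gdf15 were thus low in Dnm1l-/- and Fis1-/- and highest in Mff-/-, as Gadd45a was. The genes past 2-fold in Mff-/- beside Sesn2 were Pltp, a lipid transfer protein (139 FPKM in control and 54.8), Pmaip1, the BH3-only protein Noxa (6.92 and 2.61), and the adenylate kinase gene Ak1 (21.9 and 54.3). Pmaip1 was also below that control library in Dnm1l-/- and Fis1-/-, at 3.57 and 4.08 FPKM. Centred within deciles of GC content, Gdf15 and Sesn2 in Dnm1l-/- came to -0.86 and -0.82 and Sesn2 in Fis1-/- to -0.95. Sesn2 in Mff-/- was at -1.03 and, centred on the median of all genes, at -0.96, and it was also short of 2-fold centred within deciles of length.

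**Figure D5:**
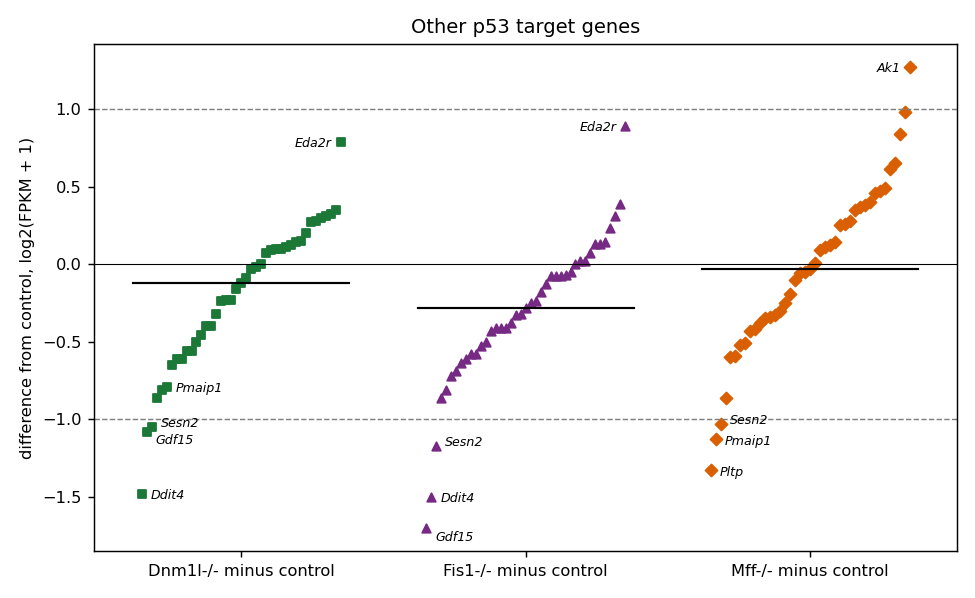
Differences from control on the log2(FPKM + 1) scale of the 41 other p53 targets compared, ordered by size within each knockout, with the list's median as a black bar and dashed lines at 2-fold. Ddit4, Gdf15 and Sesn2 lie below the lower line in Dnm1l-/- and Fis1-/-, Pltp, Pmaip1 and Sesn2 in Mff-/-, and Ak1 alone lies above the upper line.

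Bax, which opens the mitochondrial outer membrane, was at 301 FPKM in control cells, 256 without Dnm1l, 226 without Fis1 and 423 without Mff, and Bbc3, the BH3-only protein Puma, at 21.9, 13.6, 14.9 and 28.4. Both were lower in Dnm1l-/- and Fis1-/- than in control and highest in Mff-/-. Eda2r, the receptor of ectodysplasin A2, was at 9.28 FPKM in control cells, 16.8 without Dnm1l, 18.0 without Fis1 and 5.80 without Mff. Its differences from control, 0.79 in Dnm1l-/- and 0.89 in Fis1-/-, were the highest of the list there, and its level was lowest in Mff-/-, as for Ccng1 and Trp53inp1. Bax, Bbc3 and Eda2r were chosen for naming after their values were seen. The part of transcript length, base composition and scaling in their values was not tested.

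Among 28 regulators of p53, 0 were past 2-fold in any of the 3 comparisons with a pseudocount of 1. Of all genes compared, 1.80% to 2.89% were past it in each direction. The medians of the regulators were 0.02, 0.06 and 0.00 in Dnm1l-/-, Fis1-/- and Mff-/-, beside 0.01, 0.01 and -0.07 over all genes. With a pseudocount of 0.1, 2 regulators lay past 2-fold below control in Fis1-/- and 1 in Mff-/- (3.39% and 6.18% of all genes). Other scalings gave up to 2 below control in Mff-/-, and centring on the median or on GC content 1 above it. Rescaling put 4.63% to 6.16% of all genes that far below control there, and these centrings put 3.23% and 2.99% above it. Mdm4, the partner of Mdm2 that holds p53 inactive, was at 19.0 FPKM in control cells, 30.6 without Dnm1l, 23.7 without Fis1 and 25.7 without Mff. The checkpoint kinase gene Chek2 was at 12.3, 9.35, 9.46 and 24.5 in the same order, a difference of 0.94 in Mff-/- just short of 2-fold. The acetyltransferase gene Ep300 was at 13.8, 15.2, 17.7 and 6.95. Mdm4, Chek2, Ep300, Map3k4 and Cdk6 were named after their values were seen. The part of transcript length in their Mff-/- values was not tested. Of the 15 partners of the Gadd45 proteins, 0 were past 2-fold. Under rescaling or with the most abundant transcript alone, 1 to 3 were lower in Mff-/-, as were 4.38% to 6.16% of all genes. The medians of the partners were -0.04, 0.05 and -0.32, beside 0.01, 0.01 and -0.07 over all genes. Map3k4, the kinase that the Gadd45 proteins activate, was at 10.2, 9.18, 9.31 and 5.26 FPKM, lowest in Mff-/-, where the Gadd45 sum was highest. Among 17 cell cycle partners of p21, 16 were compared, and with a pseudocount of 1 Ccnd1, cyclin D1, was past 2-fold. Ccnd1 was lower in Dnm1l-/- and Fis1-/- and higher in Mff-/-, as were 2.09%, 1.89% and 2.61% of all genes. Cdk6, a kinase that joins it, was at 1.15 FPKM in control cells and 2.84 without Dnm1l, with differences of 0.84 in Dnm1l-/- and 0.89 in Fis1-/-, short of 2-fold on that scale and past it in Dnm1l-/- and Fis1-/- with a pseudocount of 0.1 or 0.5. Ccnd1 was at 24.1 FPKM in control cells, 7.92 without Dnm1l, 11.2 without Fis1 and 51.5 without Mff, with differences of -1.49, -1.04 and 1.07. Rescaled to equal totals, the difference in Fis1-/- was -0.99 and that in Mff-/- 0.89.

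Markers of other cell states also differed between the lines. The 9 markers of 2-cell-like cells summed to 4.30 FPKM in control cells, 88.0 without Dnm1l, 50.4 without Fis1 and 24.9 without Mff. Of these, 7 passed the filter, 5 of them under 1 FPKM in control and so only through the knockouts where they were high, and no count of them is given. The Zscan4 genes are near-identical copies whose reads can be split among them, so their single values are uncertain. Zscan4f, Zscan4c, Zscan4b, Zscan4d, Tcstv3 and Tmem92 led them. The 9 markers of extraembryonic endoderm summed to 1.80 to 4.57 FPKM and the 8 of trophoblast to 24.1 to 30.3. Among the 1 and 4 compared, 0 were past 2-fold, where 1.80% to 2.89% of all genes were in each direction. The endoderm marker Ttr was listed at 0 in every library. Of the 10 stem cell markers, Utf1 was past 2-fold in Mff-/-, where 2.61% of all genes were that far above control. It was at 451 FPKM against 224 in control, a difference of 1.00 that was 0.79 under the alternative that lowered it most. The part of these cell states in the values of the p53 targets was not tested.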

How the data were processed

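RNA of 4 embryonic stem cell lines, 1 library each, was grouped by genotype label. The authors deposited 1 table of FPKM values for 33818 RefSeq transcripts, with transcript lengths in bases among its other columns, per the file headers. The submitters' processing notes name STAR 2.5.2b, FastQC 0.11.5, R 3.6.1, StringTie 1.3.3b and the mm10 build, with no role given. The column named for Drp1 was matched to Dnm1l by that synonym. Transcripts were summed per gene symbol, and 10688 protein-coding genes with a mean of at least 1 FPKM were compared, with a pseudocount of 1. Starts were 1 below RefSeq in 14458 genes and equal in 774, so 1 was added. FPKM scales each library to its own total, so a gene's value also depends on the others in its library. Fragments per library were estimated from the spacing of low FPKM values of genes listed with 1 transcript, 3000 bases or longer, of which 87.1% to 90.8% lay within 0.15 of a whole multiple, and counting intervals are Poisson for levels and binomial (Clopper-Pearson) for ratios. The fragment numbers are estimates, so no count model was used. Exons, GC content and overlapping genes came from GENCODE vM21 (GRCm38), promoter windows from RefSeq (GRCm38.p6). GC content was found for 99.5% of the genes compared. Of other lists, up to 6 genes past 2-fold were named. The 10 genes and the lists were chosen with earlier results of these data known. The calculation was tested on simulated data. Python 3.11.15, pandas 2.3.3, numpy 2.4.6 and scipy 1.17.1 were used.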

Additional observations from a re-analysis of the deposited data

How the results depend on the processing

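Of the 30 differences of the 10 genes from control, 24 kept their sign under every alternative that gave a value, and 6 did not: those of Trp53, Mdm2 and Zmat3 in Mff-/-, of Trp53 and Mdm2 in Fis1-/-, and of Phlda3 in Dnm1l-/-. The largest of these 6 was 0.18 in size as reported. Gadd45g in Mff-/- ranged from 2.80 to 3.85, Gadd45a there from 0.67 to 0.97, and Ccng1 in Dnm1l-/- and Fis1-/- from 0.67 to 0.84 and from 0.55 to 0.82. With a mean of at least 5 FPKM required, Gadd45g was not compared, which left 0 of the others 2-fold above control in Mff-/-. With the most abundant transcript alone, Trp53inp1 had a range under 2-fold. The median of the 10 genes in Mff-/- was -0.13 when libraries were rescaled to their mean total or to TPM, -0.11 with the 1% most abundant genes left out, and 0.14 centred on deciles of GC content. In Fis1-/- it was -0.06 with the most abundant transcript alone, and in Dnm1l-/- 0.11 centred on GC content. A range of at least 2-fold was kept by 2 of the 10 genes, Gadd45a and Gadd45g, when centred on deciles of GC content (15.7% of all genes) or of length (14.5%), and by 0 without the Mff-/- library, where 5.46% of all genes had one. These 3 alternatives were chosen after seeing the data.

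The shares of all genes past 2-fold also depended on the settings. A pseudocount of 0.1 gave 3.56% lower in Dnm1l-/-, 2.87% higher and 3.39% lower in Fis1-/- and 6.18% lower in Mff-/-. Without the filter, which adds genes near 0, 1.40% were higher and 1.12% lower in Dnm1l-/-, 0.955% and 1.01% in Fis1-/-, and 1.42% and 1.51% in Mff-/-, and 9.79% had a range of 2-fold. In Mff-/-, higher and lower genes were 1.43% and 4.86% rescaled to the mean total, 1.68% and 6.16% as TPM, and 1.46% and 4.63% without the 1% most abundant genes. There 4.38% were lower with the most abundant transcript alone, and 1.62% higher centred on length. Of 390 counts for other lists under the alternatives, 33 moved, by more than 1.5 times or between 0 and another count. Shares of transcripts within a gene do not depend on scaling. No paired analysis was possible because each group has 1 library. The depth limits Gadd45g most, with 37 estimated fragments in control.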

Other observations

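Of 13 paralogs of the 10 genes, 10 were compared. Cdkn1b, Cdkn1c, Phlda2 and Phlda1 were past 2-fold in at least 1 comparison. The share of all genes past it in at least 1 comparison was not counted. Cdkn1b, the p27 relative of p21, was at 17.9 FPKM in control cells, 18.8 without Dnm1l, 19.2 without Fis1 and 5.58 without Mff, low in Mff-/- alone. Cdkn1c, the imprinted inhibitor p57, was at 9.65, 3.78, 3.73 and 20.7 FPKM in the same order, low in Dnm1l-/- and Fis1-/- and highest in Mff-/-. Phlda2, an imprinted relative of Phlda3, was at 59.5, 26.2, 13.6 and 89.5 FPKM, and Phlda1 at 13.8, 27.5, 17.7 and 4.30. Counts at least 2-fold higher and lower were 0 and 2 in Dnm1l-/-, 0 and 2 in Fis1-/-, and 1 and 2 in Mff-/-, where 2.51% and 2.09%, 1.80% and 1.89%, and 2.61% and 2.89% of all genes were. The difference of Cdkn1c in Mff-/- was 1.03 as reported and 0.86 with libraries rescaled to equal totals. In Dnm1l-/- and Fis1-/- it was -1.15 and -1.17, and short of 2-fold both centred on GC content and with the most abundant transcript alone, the smallest values being -0.93 and -0.79.

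Among all genes compared outside the lists, those with the profile over the 4 libraries most like Gadd45g were Urah and Psors1c2, with a root mean square distance of 0.355 and 0.362 on the log2 scale after centring each gene. For Gadd45a they were Marco and Nkx6-2 (0.0198 and 0.0406), for Ccng1 Atp1b1 and 1110007C09Rik (0.0297 and 0.0367), and for Trp53inp1 BC026585 and Nhlrc3 (0.00482 and 0.0131). With 4 points per gene, 1 from each library, these are descriptions. Marco was at 1.14 FPKM in control cells, 0.691 without Dnm1l, 0.852 without Fis1 and 3.02 without Mff. It passed the filter through Mff-/-, and at this level its distance depends on the pseudocount of 1.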
